A study of Danio rerio with 6 samples.

Results

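The genes of heme synthesis and of the red cell programme alas2, alad, uros, urod, cpox, fech, gata1a, epb41b and sptb were followed in RNA-seq libraries of sorted endothelial cells (ECs) from zebrafish tails. They were taken by name, with no threshold on a measured value, and all 9 of 9 were among the 10232 genes of the deposited table. The set was chosen with earlier results of these data known, so that shares over all genes set beside it are a description. DN-bmal1a embryos carried flk1:GFP, flk1:GAL4 and UAS:DN-bmal1a, and control embryos carried flk1:GFP and UAS:DN-bmal1a without the driver, so that both groups held the reporter and the UAS transgene and neither was wild type. flk1 is an older name of kdrl, a VEGF receptor gene of ECs, and its promoter drives GFP as well as GAL4, which switches on the dominant-negative bmal1a behind its UAS sequence. GFP-positive cells were sorted at 36 hpf from the tails of embryos, the region holding the caudal haematopoietic tissue (CHT), with 3 libraries per group. The 2 groups differ in GAL4 as well as in the expressed transgene, and these cannot be told apart.

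Heme is the iron-containing ring that lets haemoglobin bind oxygen, and its synthesis starts in the mitochondrion, passes through the cytosol and ends in the mitochondrion again. Every cell makes some heme, but red cell precursors make by far the most, and they use a first enzyme of their own, Alas2, in place of the ubiquitous Alas1. Gata1 is the transcription factor that switches on globin, heme and membrane genes in these precursors, and protein 4.1 and beta-spectrin form the skeleton that holds the red cell membrane in shape. Zebrafish blood mutants of most of these genes are known by names such as sauternes (alas2), yquem (urod), dracula (fech), vlad tepes (gata1a), merlot (epb41b) and riesling (sptb). At the stage sampled, primitive red cells circulate in the tail vessels beside the sorted ECs.

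Values are given as CPM, reads per 1000000 of an effective library size as the authors normalised them, and fold changes as differences of log2(CPM + 1), DN-bmal1a minus control, which understate the change of genes with few reads. arntl1a is another name of bmal1a, the zebrafish gene from which the transgene takes its sequence. It had 42.9, 22.1 and 55.5 CPM in DN-bmal1a and 20.6, 16.8 and 3.28 CPM in controls, where reads of the transgene and of the gene itself were not told apart. Between 26161915 and 55004237 reads could be recovered per library. DN-bmal1a replicate 2 was the shallowest library and had 1760 genes without a read, against 34 to 865 in the other 5. Of a list of 8 endothelial markers, 7 were in the table and had reads in every library. All 7 had a fold change below 0, as had 5945 of all 10232 genes, and that of fli1a was only -0.05. kdrl had 620, 605 and 478 CPM in DN-bmal1a and 911, 1116 and 1289 CPM in controls. Its groups did not overlap, nor did those of cdh5, for VE-cadherin, and of egfl7. These were 3 of the 7 that lay lower in this way, against 10.7% of all genes, and the rest overlapped. egfl7 and fli1a were named after their values were seen. The summed level of the 7 was 2707 to 3094 CPM in DN-bmal1a and 3698 to 4713 CPM in controls. Genes of other cells were present as well. Of a list of 17 globins, 5 were in the table, all of them embryonic. These 5 summed to 3910, 5865 and 5691 CPM in DN-bmal1a replicates 1, 2 and 3. In control replicates 1, 2 and 3 they summed to 3071, 891 and 1960 CPM. hbbe1.1, hbbe3 and hbae1 did not overlap between the groups (log2 fold changes 2.05, 1.51 and 1.42). These were 3 of the 5 globins, against 7.00% of all genes that lay higher in this way. How reads of near-identical globin copies were counted is not given. Of 6 myeloid markers, 5 were listed and summed to 6243 to 9369 CPM in DN-bmal1a, against 6428 to 11040 CPM in controls. lyz had the most reads of these. The mean of mpx in DN-bmal1a was 50.0% of control (adjusted p of 0.314 in limma), and both were named after their values were seen. Of the 5, 1 had a fold change above 0 and 4 below, and all overlapped. The summed markers of thrombocytes, of muscle and of skin overlapped between the groups as well. Of the 3 listed thrombocyte markers, all named after their values were seen, mpl and gp1bb overlapped. fermt3b lay higher in every DN-bmal1a library (93.0, 89.7 and 91.0 CPM against 65.5, 53.6 and 27.8 CPM), as did 7.00% of all genes. In such bulk samples more cells of a type and more RNA per cell cannot be told apart, and the part of red cell or endothelial content in the values that follow was not tested.

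None of the 9 genes was called with limma at an adjusted p under 0.05 and a change of at least 2-fold, a rule that called 1 gene, or 0.00977%, of the whole table. At an unadjusted p under 0.05, 3 of the 9 were higher in DN-bmal1a and 1 was lower, where 3.10% and 8.12% of all genes were. The 3 DN-bmal1a libraries lay above the 3 controls in alad, uros and cpox and below them in gata1a, that is in 3 and 1 of 9 genes, against 7.00% and 10.7% of all genes. The median fold change of the 9 was 0.52 on the log2 scale, against -0.13 over all genes. On the recovered reads, edgeR's exact test called 0.371% of genes and DESeq2 1.87%, neither of them any of the 9, although 2 and 3 of the 9 had an unadjusted p under 0.05 there, as did 676 and 1026 of all 10232 genes. edgeR's quasi-likelihood test called no gene, with 804 genes and 2 of the 9 at an unadjusted p under 0.05. For the globins hbbe1.1, hbbe3 and hbae1, the adjusted p was 0.000125, 0.0374 and 0.0113 in DESeq2, which called them. It was 0.000798, 0.0903 and 0.0512 in edgeR's exact test, which called hbbe1.1 alone of these. In limma, which called none of them, it was 0.185, 0.268 and 0.234. The paper's own edgeR comparison listed these 3 globins and hbae3 as differentially expressed, and none of the 9. Without DN-bmal1a replicate 2, the shallowest library, 5 of the 9 lay higher without overlap, alas2 and epb41b being added, and 1 lay lower, where 12.3% and 15.3% of all genes did with these smaller groups. Leaving out DN-bmal1a replicate 1 or control replicate 1 added urod alone, where 13% and 11.2% of all genes lay higher. Leaving out any of the other 3 libraries added none, where 9.77% to 11.4% of all genes lay higher. In these 5 comparisons gata1a alone of the 9 lay lower, where 14.2% to 20.1% of all genes did. Nothing in the labels says that the libraries came from separate clutches, so that p-values measure only the spread between these libraries, which may be technical.

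**Figure D1:**
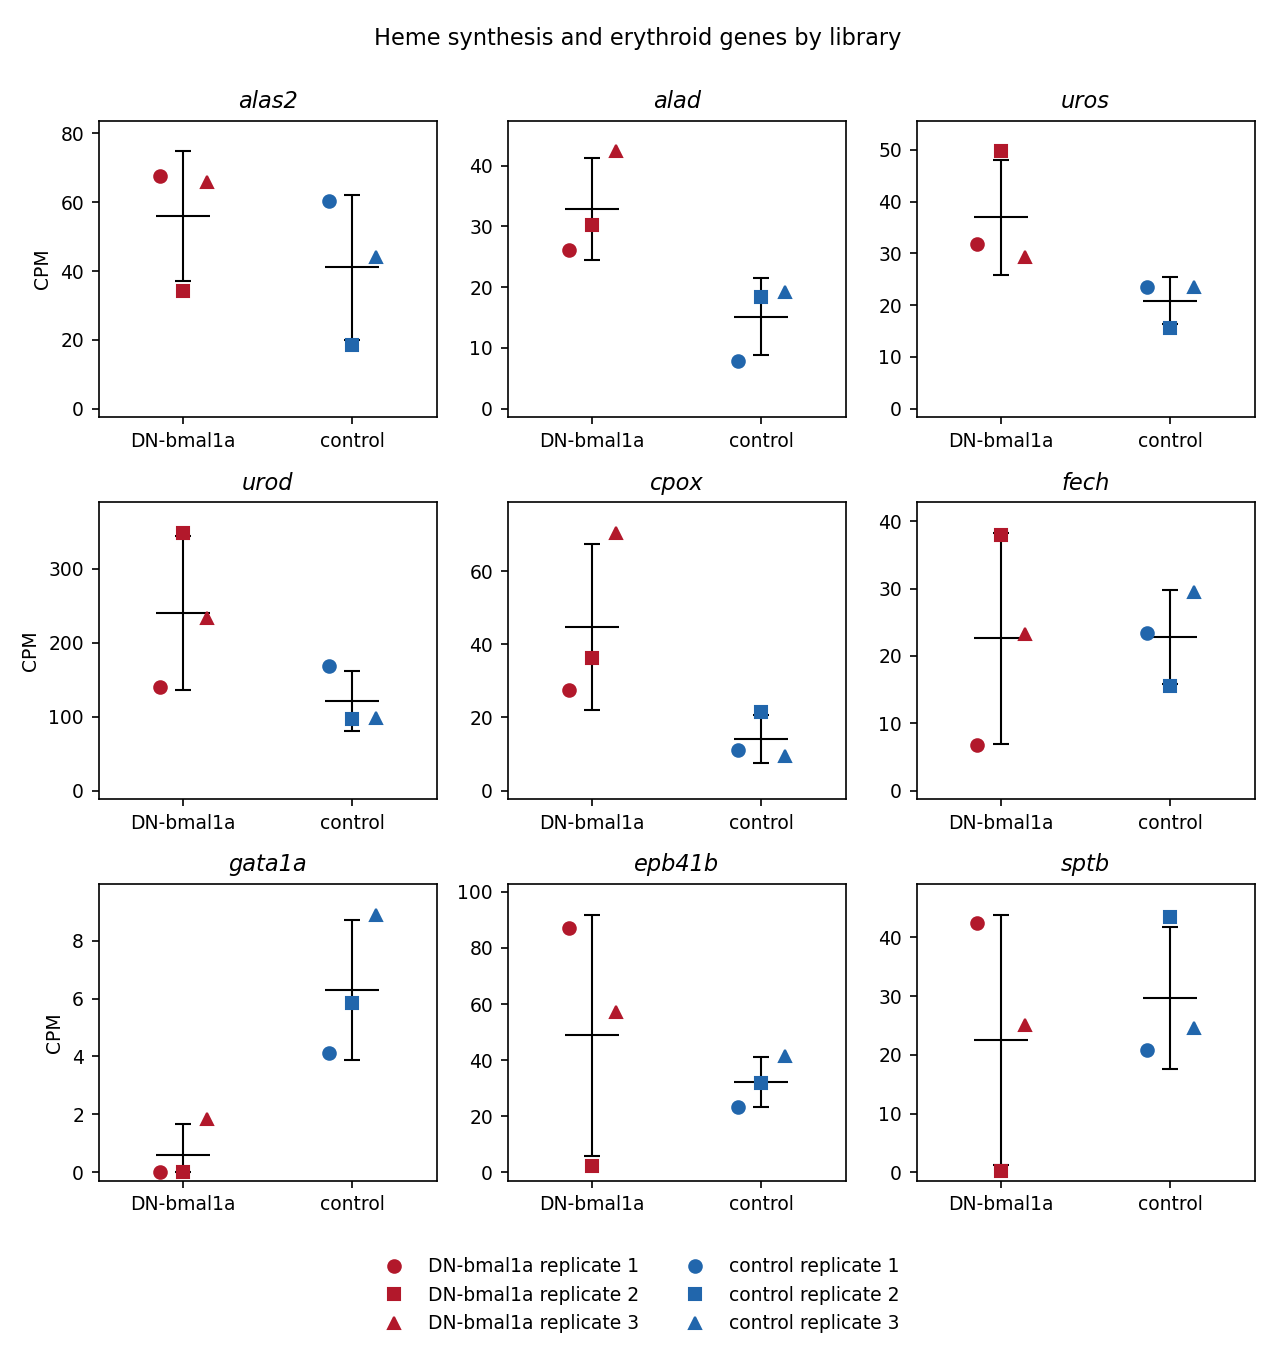
CPM of each gene in the 3 DN-bmal1a libraries (red, left) and the 3 control libraries (blue, right), with marker shapes for the replicate numbers, a horizontal line for the group mean and bars for 1 SD (cut at 0). The groups do not overlap in alad, uros, cpox and gata1a, and DN-bmal1a replicate 2 lies close to 0 in epb41b and sptb.

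alas2 encodes the erythroid form of 5-aminolevulinate synthase, the first and rate-setting enzyme of heme synthesis. Its values were 67.6, 34.2 and 65.9 CPM in DN-bmal1a and 60.3, 18.7 and 44.1 CPM in controls. Replicate 2 was the lowest library of either group, and the groups overlapped. The mean was 55.9 ± 18.8 CPM in DN-bmal1a and 41.0 ± 21.0 CPM in controls (SD, n = 3 each), a log2 difference of 0.52 ± 0.47 (standard error, 95% interval -0.53 to 1.58) with an adjusted p of 0.706 in limma. Without control replicate 2, the library with the fewest globin reads, the fold change was 0.05. The housekeeping form alas1 had 517, 442 and 385 CPM in DN-bmal1a and 424, 399 and 430 CPM in controls, with a log2 fold change of 0.09 and an interval of -0.28 to 0.46.

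alad encodes 5-aminolevulinate dehydratase, which joins a pair of aminolevulinate molecules into porphobilinogen in the cytosol. It had 26.1, 30.2 and 42.4 CPM in DN-bmal1a, against 7.80, 18.4 and 19.2 CPM in controls. The groups did not overlap, and control replicate 1 was the lowest of the 6 libraries. The mean in DN-bmal1a reached 218% of that in controls, a log2 difference of 1.14 ± 0.50 (standard error), with an adjusted p of 0.438 in limma. A two-sided exact permutation test gave p = 0.1, and with groups of 3 it can give no smaller value. With single libraries removed the difference was 0.75 to 1.35, lowest without control replicate 1.

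uros encodes uroporphyrinogen III synthase, which closes the linear chain of pyrroles into the ring form used for heme. It had 31.9, 49.7 and 29.3 CPM in DN-bmal1a, against 23.5, 15.6 and 23.5 CPM in controls. The groups did not overlap, but the gap between the lowest DN-bmal1a library and the highest control was smaller than the SD within DN-bmal1a, 11.1 CPM. The log2 difference was 0.78 ± 0.41 (standard error), with an adjusted p of 0.519 in limma and an exact permutation p of 0.1, and it was 0.55 to 0.92 with single libraries removed.

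urod encodes uroporphyrinogen decarboxylase, which trims the side chains of that ring. Its values were 140, 348 and 233 CPM in DN-bmal1a and 168, 96.6 and 98.5 CPM in controls. The groups overlapped through control replicate 1 and DN-bmal1a replicate 1, while DN-bmal1a replicates 2 and 3 were the highest of the 6 libraries. The mean in DN-bmal1a, 240 ± 104 CPM, was 198% of that in controls, 121 ± 40.8 CPM (SD, n = 3 each). The log2 difference was 0.94 ± 0.34 (standard error), with an adjusted p of 0.367 in limma, and it was 0.62 without DN-bmal1a replicate 2 and 1.28 without DN-bmal1a replicate 1.

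cpox encodes coproporphyrinogen oxidase, with which the pathway returns to the mitochondrion. It had the largest ratio of means of the 9 genes. The libraries had 27.6, 36.3 and 70.5 CPM in DN-bmal1a, from 1192, 989 and 3966 reads, against 11.2, 21.6 and 9.50 CPM in controls, from 463, 806 and 478 reads. All DN-bmal1a libraries lay above all controls, with DN-bmal1a replicate 3 apart from the rest. The mean in DN-bmal1a reached 318% of that in controls, a log2 difference of 1.57 ± 0.51 (standard error, 95% interval 0.42 to 2.73), with an adjusted p of 0.332 in limma. It was 1.197 without DN-bmal1a replicate 3 and between 1.35 and 1.91 with any other library left out.

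fech encodes ferrochelatase, which inserts iron into the finished ring. It had 6.69, 37.9 and 23.2 CPM in DN-bmal1a and 23.5, 15.5 and 29.4 CPM in controls. DN-bmal1a replicates 1 and 2 were the lowest and the highest of the 6 libraries, and the control values lay between them. The means were 22.6 CPM in DN-bmal1a and 22.8 CPM in controls. The log2 difference of -0.25 ± 0.64 (standard error, adjusted p of 0.901 in limma) was 0.41 without DN-bmal1a replicate 1, and its interval, -1.69 to 1.18, leaves room for a change of over 2-fold either way.

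The other enzymes of the pathway in the table were alas1, hmbsa and hmbsb, copies of the gene for hydroxymethylbilane synthase, and ppox, for protoporphyrinogen oxidase. With them, 9 of 10 listed enzyme genes had a fold change above 0, a grouping that was not planned beforehand. fech was the exception, and alas1 was at -0.017 without DN-bmal1a replicate 1. Of all genes listed, 41.9% had a fold change above 0. None of the 10 was called, the median fold change of the 10 was 0.91 on the log2 scale, and 4 of them lay higher without overlap, against the 7.00% of all genes. ppox was the one outside the followed set, with 7.11, 9.42 and 15.2 CPM in DN-bmal1a and 6.35, 2.52 and 1.17 CPM in controls. Its log2 difference was 1.53 ± 0.75 (standard error), with an adjusted p of 0.4896 in limma. tmem14ca, for a mitochondrial membrane protein that serves porphyrin transport in red cells of mice, named after its values were seen, did not overlap either, at 26.7, 33.2 and 44.5 CPM in DN-bmal1a and 22.0, 16.2 and 15.9 CPM in controls. It came from a list of other heme synthesis genes that also held alas1, hmbsa, hmbsb and ppox. Of the 10 genes of that list in the table, 6 had a fold change above 0 and 4 below, with a median of 0.048. Without overlap, 2 of the 10 lay higher and 0 lower, against 7.00% and 10.7% of all genes. hmbsa was highest in DN-bmal1a replicate 2, at 109 CPM, and hmbsb in DN-bmal1a replicate 3, at 74.8 CPM, and both overlapped the controls.

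**Figure D2:**
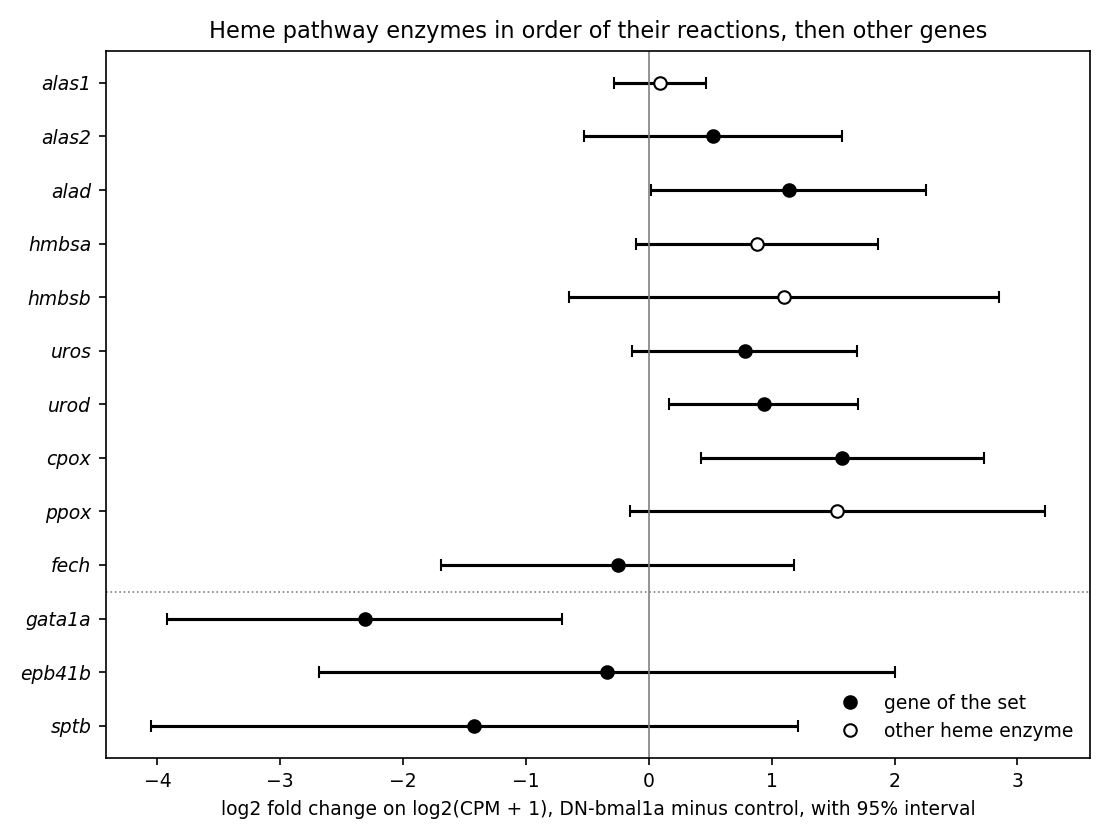
Log2 fold change on log2(CPM + 1), DN-bmal1a minus control, with 95% intervals of limma, for the heme pathway enzymes in the order of their reactions and, under the dotted line, for gata1a, epb41b and sptb. Filled circles are the 9 genes followed and open circles the other enzymes. 9 of the 10 enzymes lie to the right of 0, and the intervals of alad, urod and cpox do not reach it.

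gata1a encodes the master transcription factor of the red cell lineage. It had no read in DN-bmal1a replicates 1 and 2 and 103 reads, or 1.83 CPM, in DN-bmal1a replicate 3. The controls had 171, 218 and 447 reads, or 4.13, 5.84 and 8.89 CPM. All controls thus lay above all DN-bmal1a libraries, and the DN-bmal1a mean was 9.71% of the control mean. The log2 difference was -2.31 ± 0.72 (standard error), with an adjusted p of 0.309 in limma and an exact permutation p of 0.1, a size set in part by the added 1, since it was -4.50 with a pseudocount of 0.1 and -0.61 with one of 10. With single libraries removed it was -2.81 to -2.06. gata1a had an unadjusted p of 0.0097 in limma. On the recovered reads, its unadjusted p was 0.132 in DESeq2, 0.193 in edgeR's exact test and 0.197 in edgeR's quasi-likelihood test. Its direction was thus opposite to that of alad, uros, urod and cpox in the same libraries. klf1, for another erythroid transcription factor, had 4.47, 11.7 and 10.6 CPM in DN-bmal1a and 9.54, 4.10 and 0.76 CPM in controls, so that its groups overlapped. The related gata2a and gata2b, for factors of endothelial and progenitor cells, overlapped too, gata2a at 86.6 to 104 CPM in DN-bmal1a and 75.1 to 142 CPM in controls and gata2b at 237 to 339.8 CPM in DN-bmal1a and 143 to 326 CPM in controls, and both were named after their values were seen. Among 22 listed genes of erythroid transcription and signalling, 11 had a fold change above 0 and 11 below. The groups did not overlap in trim33, jak2a and stat5a, which were higher in DN-bmal1a, and ldb1a, which was lower, all 4 named after their values were seen. These 3 and 1 of 22 genes stand against the 7.00% and 10.7% of all genes, so that the 4 are no result about erythroid factors.

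epb41b and sptb encode protein 4.1 and erythroid beta-spectrin, which meet at the junctions of the membrane skeleton. epb41b had 87.0, 2.24 and 57.1 CPM in DN-bmal1a and 23.3, 31.8 and 41.3 CPM in controls. sptb had 42.4, 0.147 and 25.1 CPM in DN-bmal1a and 20.9, 43.4 and 24.6 CPM in controls. DN-bmal1a replicate 2 held 61 reads of epb41b and 4 of sptb, while the other 2 DN-bmal1a libraries held 1414 or more of each. The highest DN-bmal1a library thus exceeded the lowest by 38.9-fold in epb41b and 289-fold in sptb, against 1.77-fold and 2.08-fold among the controls.

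Both fold changes turned on that library. For epb41b the log2 difference was -0.34 ± 1.04 (standard error, adjusted p of 0.920 in limma), although the mean CPM was higher in DN-bmal1a, at 152% of control. Without DN-bmal1a replicate 2 it was 1.15, with an adjusted p of 0.397 in limma. For sptb it was -1.42 ± 1.17 (standard error, adjusted p of 0.687 in limma), and 0.21 without DN-bmal1a replicate 2. Of the genes with at least 10 CPM in both other DN-bmal1a libraries, 3.65% (209 of 5727) were under 10% of both in replicate 2, a count devised after the values of sptb and epb41b were seen, and the same share was 0.672% and 0.69% for DN-bmal1a replicates 1 and 3 and 0.0171% to 1.14% for the controls.

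**Figure D3:**
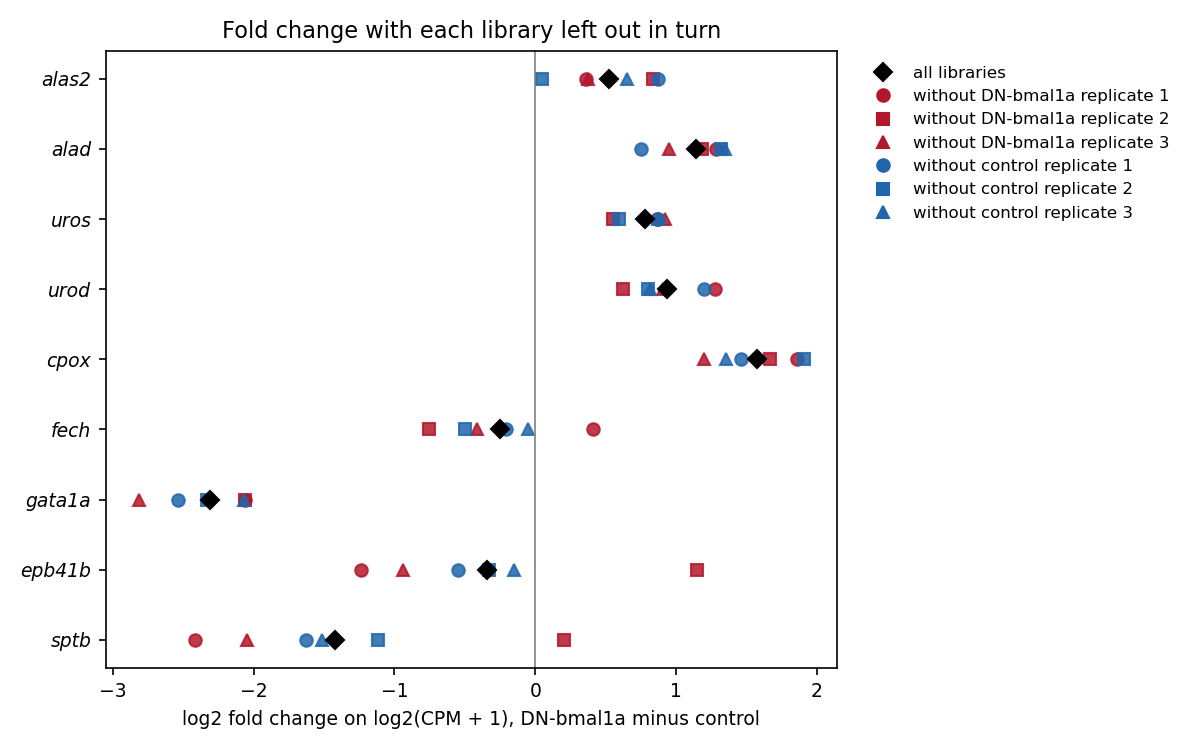
Log2 fold change on log2(CPM + 1), DN-bmal1a minus control, of each gene with all 6 libraries (black diamonds) and with each library left out in turn (red, a DN-bmal1a library; blue, a control library; shapes give the replicate). alad, uros, urod, cpox and alas2 stay to the right of 0 and gata1a to the left, while epb41b and sptb cross 0 without DN-bmal1a replicate 2 and fech without DN-bmal1a replicate 1.

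Replicate 2 of DN-bmal1a was not low throughout the set. It had the highest values of all 6 libraries in uros, urod and fech, and the highest globin sum, but the lowest values of its group in alas2, epb41b and sptb and no gata1a. Among the other red cell membrane genes, slc4a1a, for the anion exchanger band 3, had 116, 153 and 222 CPM in DN-bmal1a and 94.9, 45.2 and 111 CPM in controls. Its groups did not overlap (log2 difference 1.01 ± 0.36, standard error, adjusted p of 0.364 in limma). The same held for rhag, for an Rh-associated membrane channel, with 33.6, 22.2 and 67.2 CPM in DN-bmal1a and 15.2, 14.4 and 12.0 CPM in controls (log2 difference 1.36). It held also for cahz, for a red cell carbonic anhydrase, with 49.3, 66.0 and 77.8 CPM in DN-bmal1a and 41.3, 8.91 and 28.6 CPM in controls (log2 difference 1.47). Of 11 listed genes in that group, 3 had a fold change above 0 and 8 below, with a median of -0.48, and tpm4a, named after its values were seen, lay lower in every DN-bmal1a library. The genes without overlap were thus 3 higher and 1 lower of 11, against 7.00% and 10.7% of all genes.

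Of 20 listed genes of heme and iron transport, storage and breakdown and of the use of iron in the cell, 9 had a fold change above 0 and 11 below, with a median of -0.04, and none was called. slc48a1b, a copy of the gene for a heme transporter of endolysosomes, had 0.417, 0 and 0 CPM in DN-bmal1a and 9.18, 2.70 and 6.28 CPM in controls (log2 difference -2.53 ± 0.66, standard error, adjusted p of 0.256 in limma). slc25a37, for the mitochondrial iron importer mitoferrin, mutated in frascati fish and named after its values were seen, had 10.4, 0 and 0 CPM in DN-bmal1a and 4.42, 7.17 and 1.81 CPM in controls, so that its groups overlapped. The groups of tfr2 (lower) and fth1a (higher), named after their values were seen, did not overlap. With slc48a1b these were 1 higher and 2 lower of 20 genes, close to the shares over all genes. tfr2 had 0, 0 and 0 CPM in DN-bmal1a and 0.338, 1.15 and 1.75 CPM in controls. A gene without DN-bmal1a reads could be listed only if every control held some. The lack of overlap of tfr2 was thus fixed by its listing and is no separate result.

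Each gene was also set against the summed reads of the 5 listed globins in its own library, a measure chosen after the values were seen. Per 1000 globin reads there were 17.3, 5.83 and 11.6 reads of alas2 in DN-bmal1a and 19.6, 20.95 and 22.5 in controls. The control ratios were thus close to each other although the globin reads behind them numbered 127149, 33270 and 98561, and every DN-bmal1a ratio was lower. fech had 1.71, 6.47 and 4.08 in DN-bmal1a and 7.65, 17.4 and 15.0 in controls. fech and gata1a thus also lay lower in every DN-bmal1a library, and the other 6 genes overlapped. On this scale 49.1% of all genes but the globins lay lower in every DN-bmal1a library and 0.0782% higher, so that 3 of 9 lower and 0 of 9 higher is no result about these genes.

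**Figure D4:**
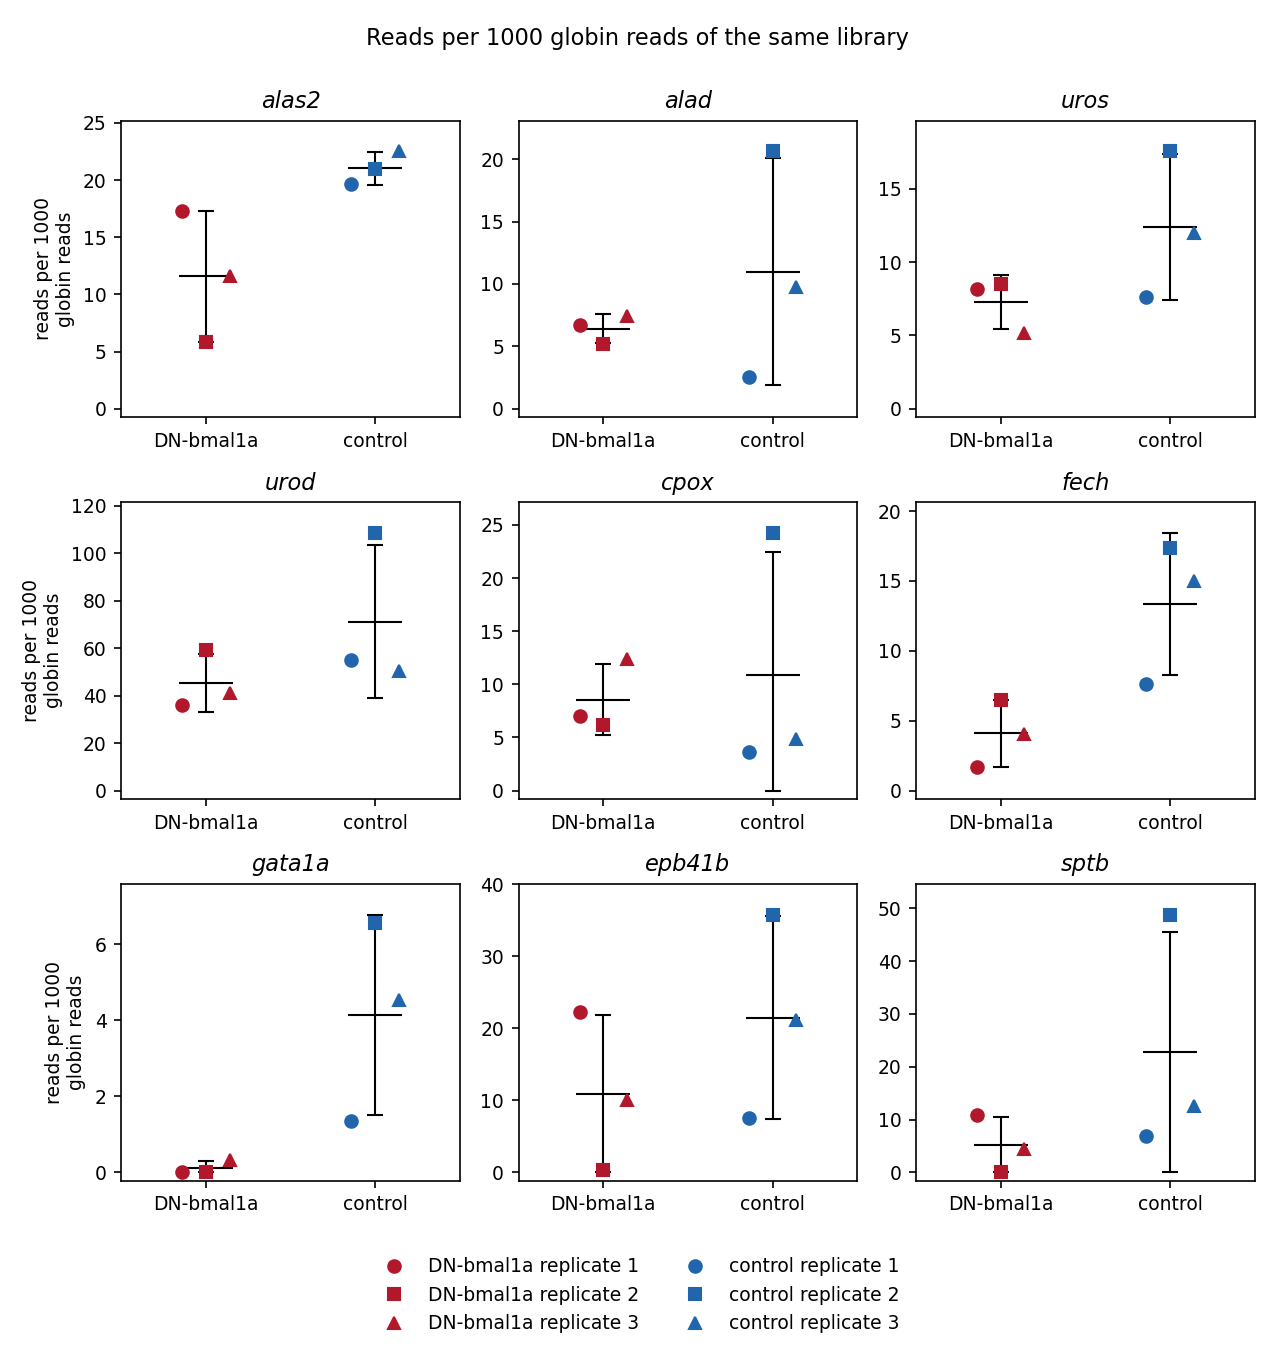
Reads of each gene per 1000 globin reads of the same library (the 5 listed globins summed). The 3 DN-bmal1a libraries are red (left) and the 3 controls blue (right), with the group mean and 1 SD (cut at 0). alas2 spans 5.83 to 17.3 in DN-bmal1a and 19.6 to 22.5 in the controls, and on this scale 49.1% of all genes but the globins lie lower in every DN-bmal1a library.

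Outside the set, the genes whose log2(CPM + 1) followed that of alas2 most closely over the 6 libraries were rbmx (Pearson's r = 0.985), paip2b (0.968), cwc25 (0.957), gpkow (0.954) and gtf2f1 (0.953). The 6 points share libraries and depth, and these highest values over the whole table are given as a description. rbmx had 162, 130 and 168 CPM in DN-bmal1a and 169, 104 and 149.97 CPM in controls, a far narrower range than that of alas2.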

How the data were processed

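The data are 6 bulk RNA-seq libraries of sorted tail ECs at 36 hpf. Per the labels, the authors used STAR 2.7.0f, HTSeq 0.9.1 and edgeR 3.38.4, while the methods name another version of edgeR. The build is given as GRCz11 in the labels and as danRer10 in the methods, so that no coordinates are given. They deposited normalised signal per gene, in reads per 1000000 of an effective library size (CPM), for 10232 genes with reads in at least 3 libraries. Columns were matched by sample title, and 0 columns were left over. Dividing by the value of a single read gave whole numbers for 100% of the values above 0 (tolerance 1e-06 reads), and that value matched a TMM effective library size. The columns do not sum to 1000000 as planned for CPM, and the planned test was kept. The filter behind the table, strand use and the handling of near-identical copies are not given in the sources used here.

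limma 3.58.1 (lmFit, eBayes with a trend) in R 4.3.3 was fitted on log2(CPM + 1) over all genes without covariates, with Benjamini-Hochberg adjustment. A gene was called at an adjusted p under 0.05 and 2-fold. edgeR 4.0.16 and DESeq2 1.42.0 were run on the recovered reads. Other alternatives were the pseudocount, a filter at a mean of 1 CPM, scaling, trend, array weights, the replicate block and each library left out. The limma script was tested on simulated data with large changes and the same setting of spread for every gene. That does not show how often it misses or wrongly calls genes in these libraries. The genes and lists were chosen with earlier results of these data known. Genes were named if called, or if the groups did not overlap with a 2-fold change on the log2 scale, beside the 9 members and fixed names; others are marked. Intervals and p-values rest on the spread between libraries, and do not separate the sampling of molecules before amplification from other parts of that spread.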

Additional observations from a re-analysis of the deposited data

How the results depend on the processing

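No alternative called any of the 9 genes, and between 1 and 5 of them had an unadjusted p under 0.05, where 676 to 1531 genes of the whole table did, with 1508 under the array weights that gave the 5. The number of genes called in the whole table was 1, and 7 without a trend, 22 with array weights, 38 with edgeR's exact test, 187 with DESeq2, 0 with the quasi-likelihood test and 0 to 1 with a library left out. With the replicate block, limma called 1 gene and 0 of the 9. Same-numbered libraries deviated from their group means with correlations of -0.0735, -0.0114 and 0.0025. With 3 libraries per group, these values cannot tell whether same-numbered libraries shared a clutch or a batch. alas2, alad, uros, urod and cpox stayed above 0 and gata1a below 0 under all 17 alternatives. Directions turned for epb41b with a pseudocount of 10 (0.052), array weights (0.25), the quasi-likelihood (0.60) and exact tests (0.60) and DESeq2 (0.62), and for fech with DESeq2 (0.017). With a library left out, epb41b ranged from -1.24 to 1.15, sptb from -2.42 to 0.21 and fech from -0.76 to 0.41, and the cause was not tested. Quantile normalization shifted the median of all genes by 0.17 to 0.04 and that of the 9 to 0.60, and the 4 genes without overlap stayed the same with both other scalings. The number of libraries, 3 per group, limits the precision of every value here.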
